A study of Mus musculus with 34 samples.

Results

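The axon guidance and ephrin genes were followed through CpG island methylation in mouse tissues, embryos and embryonic stem (ES) cells. Members were chosen by gene name alone, as every array probe on an autosome named for an ephrin (Efna or Efnb2 and Efnb3), an Eph receptor, a semaphorin of classes 3 to 7, a plexin, a neuropilin, a Slit, a Robo receptor, a netrin, an Unc5 receptor or Dcc. Probes separated by gaps of at most 500 bases were joined into islands of at least 3 probes. This gave 84 islands of 53 genes, out of 13616 islands scored in all. They held 639 probes, with a median of 7 and a range of 3 to 23 per island. Eph receptors made up 25 islands of 13 genes, semaphorins 22 of 14, plexins and neuropilins 12 of 8, ephrin ligands 9 of 7, Unc5 receptors 6 of 4, Slits 5 of 3, netrins 3 of 2 and Robo receptors 2 of 2. Of 657 probes with these names, from 56 genes, 3 of Plxna3 were X-linked and left out, and Sema3e and Sema4f had no run of 3 probes. Dcc, the classical attractive netrin receptor, and Sema3a, a secreted repellent, were not analysed here.

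Guidance cues steer growing axons and migrating cells by attraction and repulsion. Ephrins sit on the cell surface and bind Eph receptor tyrosine kinases of neighbouring cells, with signals passing into both cells. Semaphorins act through plexins, the secreted ones with neuropilins as co-receptors, Slits repel through Robo receptors, and netrins attract through Dcc and repel through Unc5 receptors. The same families also shape blood vessels and epithelia. Most CpG islands at transcription starts stay unmethylated in normal tissues, whereas islands inside genes are more often methylated.

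DNA immunoprecipitated with an antibody against 5-methylcytidine (mDIP) was hybridised in Cy5 beside its input DNA in Cy3 on 34 Agilent CpG island arrays. The level given here is the island methylation score (IMS), the mean over an island's probes of the Z-score of the bound over input ratio. An IMS of 0 is the mean of all probes of an array, and 1 unit is 1 SD of that array's log ratios, so it is a relative level and not a percentage of methylated molecules. Normal adult tissue came from mice of 3 months and both sexes, with 2 arrays of each of 8 tissues, namely spleen, pancreas, muscle, lung, liver, kidney, colon and brain (16 arrays). The methods give C57Bl/6 as the source of the mouse DNA. There were 5 arrays of whole embryos, 1 each at 8.5, 9.5, 10.5, 11.5 and 12.5 days post coitum (dpc), and 3 of the undifferentiated ES lines EB5, J1 and TT2. The 5 arrays of ES cells differentiated in vitro comprised embryoid bodies from TT2, retinoic acid treated cells, 2 of definitive endoderm and 1 of mesoderm. Endoderm and mesoderm were induced with Activin A and sorted on Gsc and Sox17 reporters from a line targeted in EB5. For the retinoic acid cells the label names TT2 as parent and the methods J1. The remaining arrays were 2 of teratomas, for which the labels give J1 and the methods D3 and C4 cells grown in NOD-SCID mice, and 1 each of sorted β cells, the insulinoma line Min6 and the glucagonoma line αTC. No RNA was measured, so that marker genes could not be used to check the tissues or the sorted cells.

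The labels do not say which arrays came from separate animals or cultures, and p-values then measure only the spread between these arrays. A group of ES cells also joins different lines and protocols. The arrays lay on 23 slides. Of the member probes, 64.5% to 100% per array had an input signal well above background and 63.1% to 99.8% a bound signal. The array labelled J1 stood apart. Its scanner ratios correlated with its deposited values at only 0.113, against 0.894 to 0.991 on the other arrays. Results on undifferentiated ES cells are therefore given with and without it.

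Promoter windows of 4 members that the results turn on are shown to make their CpG content visible. RefSeq windows of GRCm38.p6, from 250 bases before to 50 after a start, were found by symbol for 44 of the 53 genes (53 windows). CpG sites (the letters CG, which read alike on both strands) are in capitals. Members' windows held a median of 23 CpGs and a range of 2 to 56, whereas all 32851 windows held a median of 7, and 94.6% had at least 1. Members were taken from genes scored on a CpG island array and all windows were not. A higher median thus followed from that choice and is no trait of these families. Efna1 has 2 starts, 1306 bases apart, at chr3:89280902-89281201 and chr3:89279596-89279895 on the minus strand, each with 20 CpGs. The windows of Sema3d (chr5:12382916-12383215, plus strand), Slit3 (chr11:35121206-35121505, plus) and Ephb3 (chr16:21204545-21204844, plus) held 8, 41 and 23 CpGs, and 48.6%, 3.46% and 21.5% of all windows held as many or more. The build of the array's own positions is not named, and only 1 of 38 start islands lay within 3 kb of an end of its gene in GRCm38.p6, so that array positions below are as in the files and were not placed on these windows.
Efna1, upstream start: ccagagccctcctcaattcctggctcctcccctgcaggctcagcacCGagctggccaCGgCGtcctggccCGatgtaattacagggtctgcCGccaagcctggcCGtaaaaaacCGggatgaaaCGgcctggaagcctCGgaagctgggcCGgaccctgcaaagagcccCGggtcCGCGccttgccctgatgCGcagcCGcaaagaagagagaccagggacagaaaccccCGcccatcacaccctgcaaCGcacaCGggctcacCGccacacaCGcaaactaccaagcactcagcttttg
Efna1, downstream start: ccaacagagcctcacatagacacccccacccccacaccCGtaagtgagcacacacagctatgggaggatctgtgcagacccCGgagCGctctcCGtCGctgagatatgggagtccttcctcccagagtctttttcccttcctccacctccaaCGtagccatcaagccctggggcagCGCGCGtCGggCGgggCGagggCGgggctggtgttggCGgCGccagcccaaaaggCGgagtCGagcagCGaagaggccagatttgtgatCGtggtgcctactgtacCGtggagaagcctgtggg
Sema3d: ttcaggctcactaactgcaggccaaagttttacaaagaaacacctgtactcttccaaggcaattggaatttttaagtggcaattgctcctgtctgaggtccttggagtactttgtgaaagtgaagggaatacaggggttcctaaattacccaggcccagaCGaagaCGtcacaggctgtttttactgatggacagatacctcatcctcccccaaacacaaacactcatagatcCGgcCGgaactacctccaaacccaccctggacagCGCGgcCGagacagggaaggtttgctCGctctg
Slit3: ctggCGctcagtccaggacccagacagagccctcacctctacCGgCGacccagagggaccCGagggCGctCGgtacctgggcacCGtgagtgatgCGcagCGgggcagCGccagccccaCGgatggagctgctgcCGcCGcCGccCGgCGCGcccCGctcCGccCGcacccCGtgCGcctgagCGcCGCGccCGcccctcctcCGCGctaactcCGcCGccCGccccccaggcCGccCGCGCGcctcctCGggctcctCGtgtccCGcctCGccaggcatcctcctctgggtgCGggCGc
Ephb3: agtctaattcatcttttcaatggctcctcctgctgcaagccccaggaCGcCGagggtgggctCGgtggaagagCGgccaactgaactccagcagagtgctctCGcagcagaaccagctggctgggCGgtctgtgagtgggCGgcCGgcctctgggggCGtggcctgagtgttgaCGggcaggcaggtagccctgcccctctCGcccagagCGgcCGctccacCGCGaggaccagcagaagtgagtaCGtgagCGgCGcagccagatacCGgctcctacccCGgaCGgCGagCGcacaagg

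In adult tissue the members fell into a low and a high class that followed their position in the gene. Of the 84 islands, 38 lay at the annotated start (overlapping 250 bases before to 50 after it), 10 upstream, 32 inside the gene and 4 downstream. All 38 start islands had an adult mean between -0.893 and 0.204, with a median of -0.222 beside -0.271 for the 7797 start islands of all genes. Upstream and downstream members also stayed low, at no more than 0.208. Islands inside genes were low up to 4000 bases past the start (9 islands, median -0.338), but those further in had a median of 2.27 (23 islands), and 19 of these 23 exceeded 0.75. Over all genes, 62.2% of the 1209 islands so far inside exceeded 0.75, with a median of 1.54. Of the 1237 islands of all genes up to 4000 bases inside, 17.3% exceeded 0.75, with a median of -0.139. The limit lies between a low Nrp2 island that ends at 3752 bases and a high Ephb4 island from 4168. The split of the members thus depends in part on where it was set. In all, 16 members of 14 genes were above 0.75 on each of the 16 adult arrays, which was true of 7.37% of all islands, and all 16 lay inside genes. Another 21 members of 20 genes were below 0 on every adult array, beside 29.8% of all islands.

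**Figure D1:**
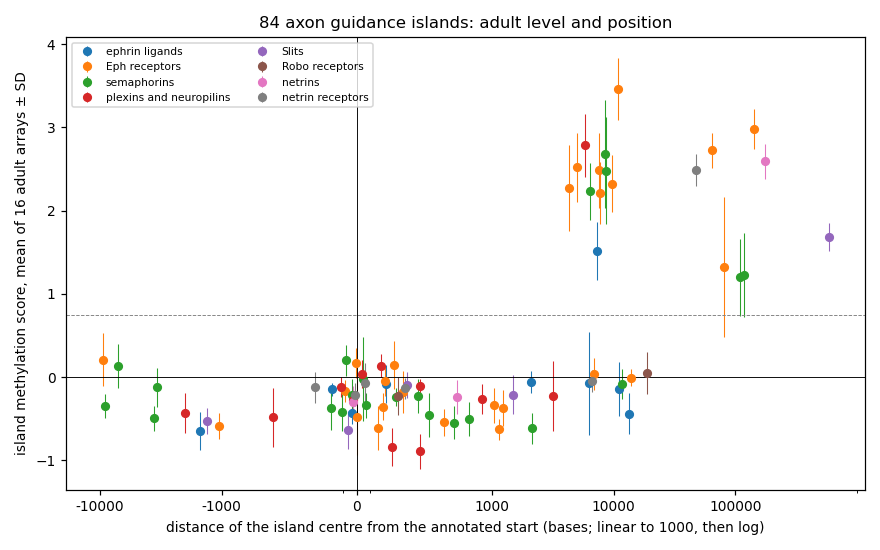
Mean IMS of the 16 adult arrays with its SD (vertical axis) against the distance of each of the 84 islands from its gene's annotated start in bases (horizontal axis, linear near the start and logarithmic beyond), coloured by family. Start islands lie between -0.893 and 0.204, and 19 of the 23 islands over 4000 bases inside genes lie above the dashed line at 0.75.

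Of the 16 islands above 0.75 on every adult array, Eph receptors held 8, beside 25 of all 84 members. The 16 all lay inside genes and the 84 did not, so these counts are not matched for position and show no excess of Eph receptors. Epha8, a receptor of ephrin-A ligands, had the highest level of any member at 3.46 ± 0.375 (SD, n = 16) in its island 10493 to 11069 bases past the start (chr4:136217801-136218422). Ephb2, a receptor of ephrin-B ligands with the most islands of any member (4), scored -0.0503 ± 0.173 (SD, n = 16) at its start (chr4:136107098-136108515) but 2.72 ± 0.210 (SD, n = 16) at 64346 to 65069 bases (chr4:136042920-136043691) and 2.98 ± 0.241 (SD, n = 16) at 141826 to 142162 bases (chr4:135965827-135966207). The inner Ephb2 island exceeded the start island on all 16 adult arrays. The same order held on all 16 arrays for Epha2, Ephb3, Ephb4, Plxna1, Sema5b, Slit3, Ntn1 and Unc5a. In Ntn1, the founding netrin, the start scored -0.239 ± 0.208 (SD, n = 16) (chr11:68201021-68203545) and an island 173662 to 173976 bases downstream of it 2.59 ± 0.212 (SD, n = 16) (chr11:68029023-68029383). In Slit3, a Robo ligand, the values were -0.637 ± 0.231 (SD, n = 16) (chr11:34964379-34965256) and 1.69 ± 0.168 (SD, n = 16) (chr11:35551297-35551523), and in Plxna1, a plexin that transmits semaphorin signals, 0.135 ± 0.137 (SD, n = 16) and 2.78 ± 0.382 (SD, n = 16). The opposite order was seen on all 16 arrays in Epha5, whose island 847 to 1244 bases past the start scored -0.338 ± 0.212 (SD, n = 16) and that at the start 0.168 ± 0.179 (SD, n = 16), and in Sema6a, a transmembrane semaphorin, at -0.616 ± 0.189 (SD, n = 16) and 0.204 ± 0.186 (SD, n = 16). The inside island was the higher on 15 arrays in Epha3, on 8 in Sema4b and on 6 in Nrp2.

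**Figure D2:**
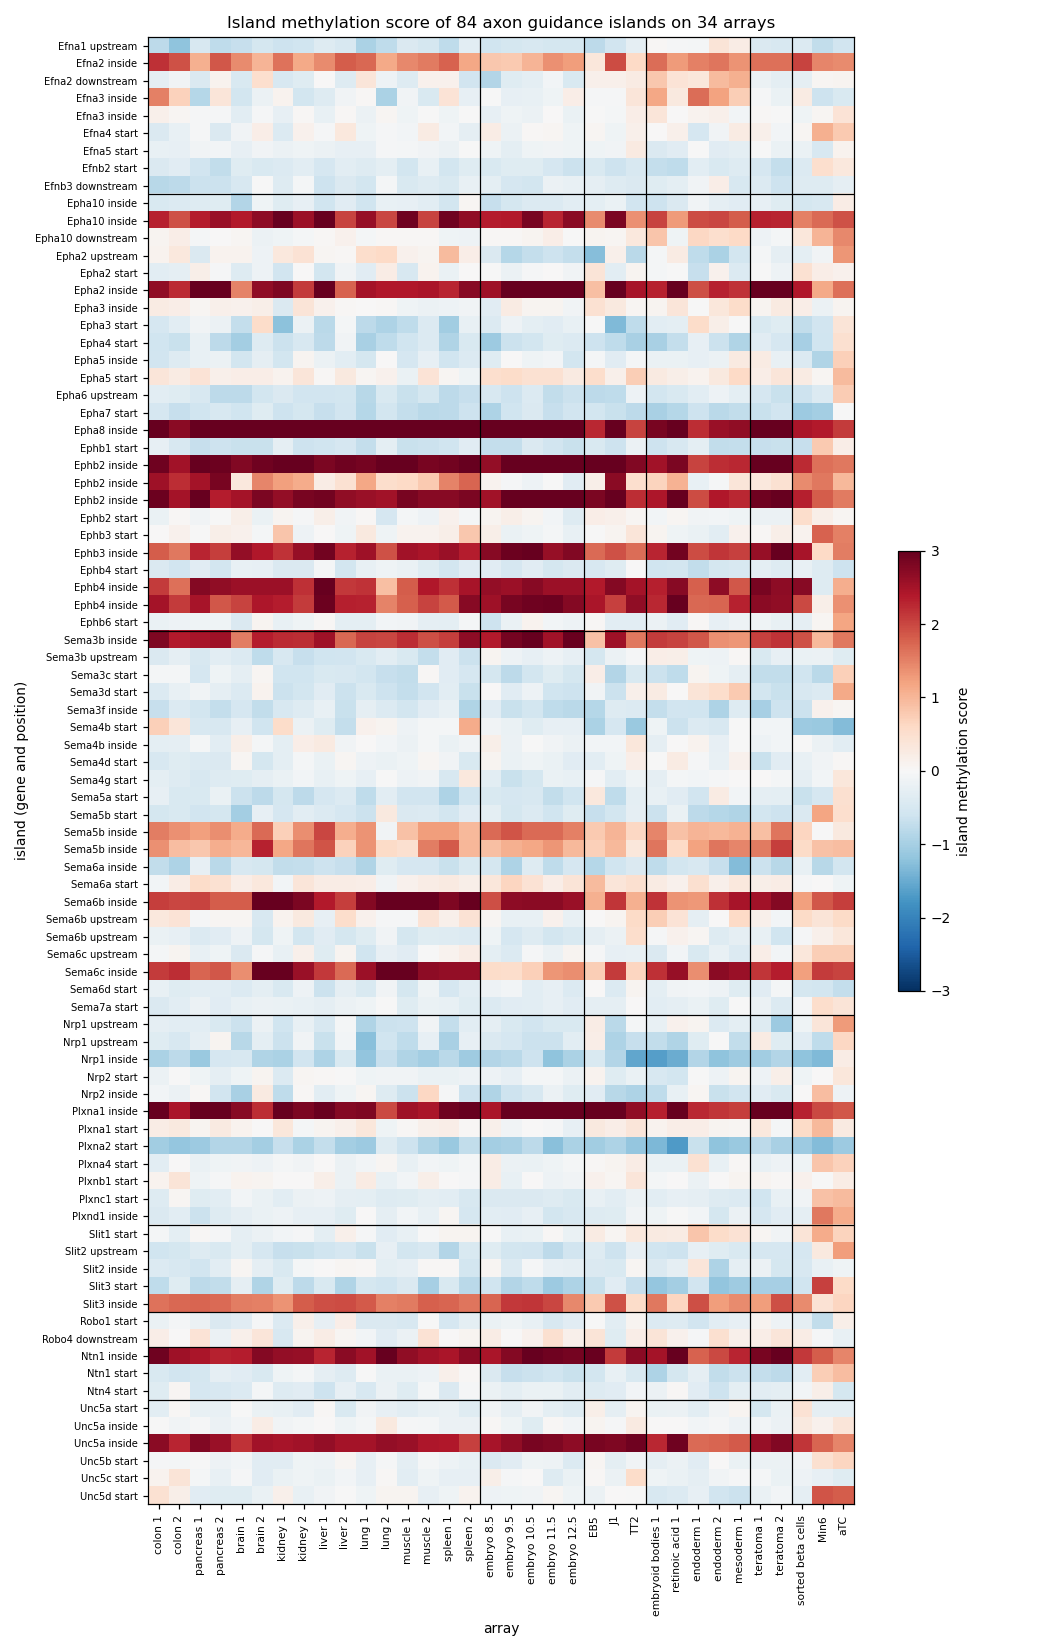
IMS of all 84 islands (rows, by family) on all 34 arrays (columns, by group), from -3 in blue to 3 in red, with values beyond shown in the end colours. The dark red rows are the islands far inside genes, which mostly stay high in adult tissue, embryos and teratomas. In the last 2 columns, Min6 and αTC, some start islands turn red and some inner islands pale.

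The first comparison asks which members differ between ES cells differentiated in culture and normal adult tissue. Of the 84 islands, the differentiated cells had 8 at a higher and 11 at a lower level (limma, adjusted p under 0.05 over all islands), together 19 islands of 18 genes. These shares, 9.52% and 13.1%, stood beside 14.4% of all islands called higher and 8.73% called lower (23.2% in all). In 3 members, Efna1, Sema3b and Slit1, all differentiated arrays lay above all adult ones (2.51% of all islands), and in 0 they lay below (0.911%). The median difference was -0.0269 over the members and -0.00995 over all islands. Ephrin ligands had 3 of 9 islands higher and 0 lower, semaphorins 3 higher and 1 lower of 22, and Eph receptors 1 higher and 5 lower of 25. Slits had 1 in each direction of 5, netrins 0 higher and 1 lower of 3, Unc5 receptors 0 higher and 2 lower of 6, plexins and neuropilins 0 higher and 1 lower of 12, and neither Robo island passed. By position, 6 of the 11 lower islands lay inside genes and 7 of the 8 higher ones at starts, upstream or downstream. The members had 32 islands inside genes, 38 at starts, 10 upstream and 4 downstream. No share over all islands by position stands beside these counts, so they describe the members only. With the slide as a block 11 members were called, 7 higher and 4 lower, but only 7 of the 19 calls (6 higher and 1 lower) were among them. With the scan day as a block 14 were called, among them 9 of the 19 (7 higher and 2 lower). Without the second endoderm array it was 12 and 11 of the 19 (7 and 4). After a normexp background correction it was 10 and 8 (6 and 2), and in the deposited table, which scores 44 members, 7 and 4 (3 and 1). The share of members called was 13.1% with the slide and 16.7% with the scan day, beside 15.1% and 16.5% of all islands. It was 11.9% with normexp and 15.9% in the deposited table, beside 13.4% and 22.3% of all islands.

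The ephrin-A ligands, which are anchored to the membrane by a lipid, held 3 of the 8 higher islands. Efna1 had an island 1875 to 1149 bases before its start (chr3:89366694-89367468), which scored -1.20 to -0.322 on the adult arrays with a median of -0.618. On the differentiated arrays it scored 0.0374 in embryoid bodies, -0.0430 in retinoic acid treated cells, -0.0529 and 0.376 in endoderm and 0.211 in mesoderm. Every differentiated array lay above every adult array. The difference was 0.751 (SE 0.105, adjusted p = 3.86e-06). The starts of Efna1 lie 1306 bases apart, a distance within 1875 to 1149, and whether this island covers the other start was not tested. In Efna3, an island 6098 to 6398 bases past the start (chr3:89402384-89402732) ranged from -0.951 to 1.52 in adult tissue, the top value being colon replicate 1, with a median of -0.140. It gave 1.17 in embryoid bodies, 0.295 in retinoic acid treated cells, 1.67 and 1.21 in endoderm and 0.735 in mesoderm, so that the groups overlapped. It was higher by 1.09 (SE 0.256, adjusted p = 0.00214), the largest difference of any member. The downstream island of Efna2 (chr10:79593523-79593874), 10935 to 11242 bases past the start, ran from -0.563 through -0.212 to 0.499 in adult tissue and reached 0.819 in embryoid bodies, 0.403 in retinoic acid treated cells, 0.342 and 0.948 in endoderm and 1.07 in mesoderm. It differed by 0.865 (SE 0.152, adjusted p = 8.69e-05), though with the slide as a block the adjusted p was 0.0975. Efna1, Efna3 and Efna4 lie together on chromosome 3, and the Efna4 start island did not pass (0.0429, adjusted p = 0.825).

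Among the semaphorins and Slits, Sema3d, a secreted semaphorin whose start window is printed above, ranged from -0.707 to 0.0966 at its start in adult tissue (median -0.429, chr5:12389281-12389621). It scored 0.251 in embryoid bodies, 0.0209 in retinoic acid treated cells, 0.390 and 0.533 in endoderm and 0.788 in mesoderm. The retinoic acid array alone fell within the adult range. The difference was 0.822 (SE 0.132, adjusted p = 2.88e-05), and 0.399 with an adjusted p of 0.111 with the slide as a block. The Sema3b island 3765 to 3382 bases before the start (chr9:107470702-107471132) ran from -0.752 to -0.280 in adult tissue and from -0.157 to 0.190 in the differentiated cells, without overlap. It was higher by 0.520 (SE 0.0868, adjusted p = 4.57e-05). Slit1, a midline repellent, ran from -0.344 to 0.162 at its start (chr19:41796348-41797246) against 0.277 in embryoid bodies, 0.256 in retinoic acid treated cells, 0.842 and 0.550 in endoderm and 0.433 in mesoderm, again without overlap, a difference of 0.564 (SE 0.0881, adjusted p = 1.87e-05). With the scan day as a block the Slit1 difference was 0.398 and its call was lost (adjusted p = 0.0753), whereas Efna1, Efna2, Efna3, Sema3d and Sema3b kept theirs. Sema5a at its start was higher by 0.358 (adjusted p = 0.0419), a call that was lost without any 1 of 10 arrays, with an adjusted p of 0.202 without the second endoderm array. A downstream Epha10 island was higher by 0.493 (adjusted p = 0.000210). It scored 0.828 in embryoid bodies, 0.632 and 0.505 in endoderm and 0.606 in mesoderm. The retinoic acid array, at -0.138, did not share the rise and lay within the adult range of -0.165 to 0.204.

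**Figure D3:**
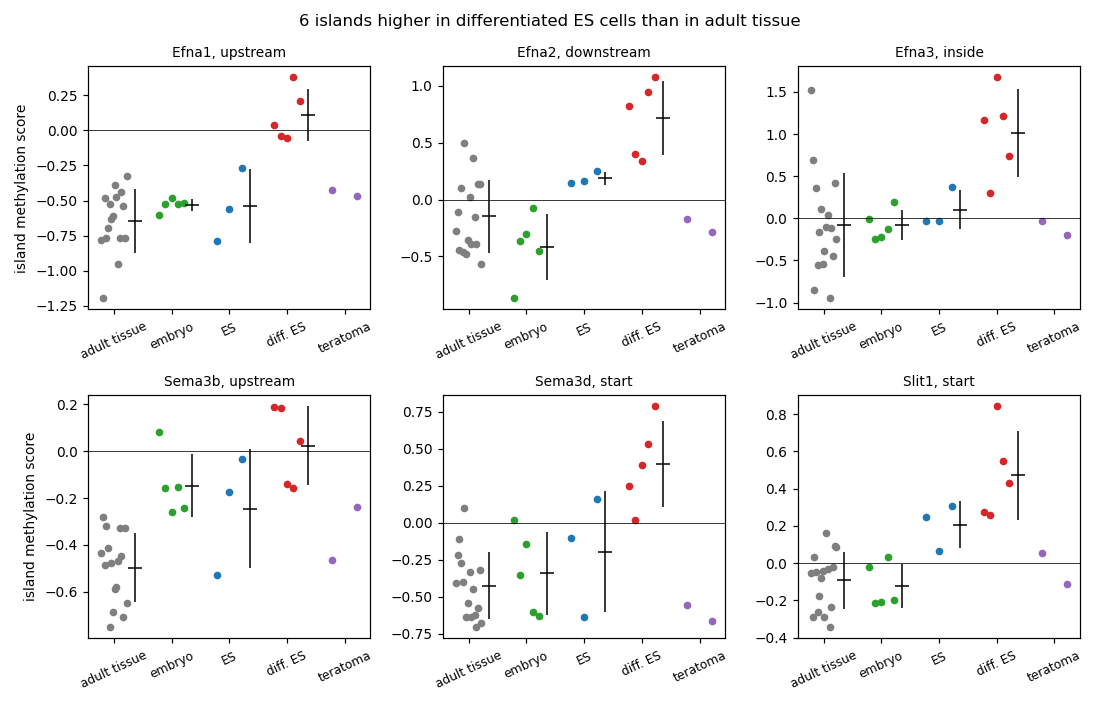
IMS (vertical axis) of 6 islands higher in differentiated ES cells, with 1 point per array for 16 adult, 5 embryo, 3 undifferentiated ES, 5 differentiated ES and 2 teratoma arrays, and mean and SD as black bars for groups of 3 or more. The Efna1, Sema3b and Slit1 points of differentiated ES cells lie above all adult points, and the teratoma points lie within the adult range except for 1 Sema3b point.

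Of the 11 lower islands 5 were in Eph receptor genes, and 3 of these were high inner islands that were partly reduced. The inner Epha8 island went from 3.46 ± 0.375 (SD, n = 16) in adult tissue to 2.75 ± 0.440 (SD, n = 5), a difference of -0.711 (SE 0.217, adjusted p = 0.0164). The differentiated arrays gave 2.84 in embryoid bodies, 3.43 in retinoic acid treated cells, 2.23 and 2.58 in endoderm and 2.67 in mesoderm, and 2 of the 5 lay within the adult range of 2.70 to 4.19. Epha10, an Eph family member without kinase activity, differed by -0.709 in its island 4586 to 5300 bases past the start (chr4:124387766-124388524, adjusted p = 0.0129), with 2.04 in embryoid bodies, 1.27 in retinoic acid treated cells, 1.95 and 2.00 in endoderm and 1.81 in mesoderm against an adult range of 1.90 to 3.38. The innermost Ephb2 island differed by -0.607 (SE 0.139, adjusted p = 0.00173), at 2.51 in embryoid bodies, 2.83 in retinoic acid treated cells, 2.04 and 2.21 in endoderm and 2.26 in mesoderm and 2.52 to 3.58 in adult tissue. An Epha2 island 9668 to 9412 bases before the start (chr4:140563625-140563925) differed by -0.622 (adjusted p = 0.0154), with -0.0536 in embryoid bodies, 0.241 in retinoic acid treated cells, -0.767 and -0.947 in endoderm and -0.545 in mesoderm. The Epha8 and Epha2 calls were lost without the first endoderm array (adjusted p = 0.0743 and 0.0613) or the second (0.0511 and 0.0887), and the Epha10 call without the retinoic acid array (0.0583). At its start, Ephb4, a receptor of veins and their precursors, differed by -0.227 (adjusted p = 0.0497), a call lost without any 1 of 18 arrays, including each differentiated one (adjusted p up to 0.142 without the first endoderm array).

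Outside the Eph receptors, the inner island of Sema6b, a transmembrane semaphorin (chr17:55717028-55718282), went from 2.67 ± 0.650 (SD, n = 16) to 1.90 ± 0.533 (SD, n = 5) (difference -0.778, adjusted p = 0.0462). This call was lost without any 1 of 13 arrays, among them 9 of adult tissue, with an adjusted p of up to 0.145 without the first endoderm array. At the starts of Ntn1, Slit3 and Unc5d, a netrin receptor (chr8:30684985-30686040), scores that were already below 0 on average in adult tissue were lower still. Ntn1 differed by -0.385 (SE 0.103, adjusted p = 0.00678), Slit3 by -0.364 (SE 0.114, adjusted p = 0.0198) and Unc5d by -0.406 (SE 0.101, adjusted p = 0.00359). The Slit3 values were -1.15 in embryoid bodies, -1.02 in retinoic acid treated cells, -0.578 and -1.19 in endoderm and -1.07 in mesoderm, with the first endoderm array apart from the others, and its call was lost without embryoid bodies, the second endoderm or the mesoderm array (adjusted p = 0.0696, 0.0774 and 0.0540). The inner Unc5a island (chr13:55005894-55006269) differed by -0.389 (adjusted p = 0.0302), lost without either endoderm array or mesoderm (adjusted p = 0.135, 0.142 and 0.114). Nrp1, a co-receptor of secreted semaphorins, differed by -0.420 just past its start (adjusted p = 0.0284). The median of its 3 probes gave 0.0409 instead, and its call was lost without embryoid bodies, retinoic acid or the second endoderm array (adjusted p = 0.136, 0.0862 and 0.0531).

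On 2 slides a differentiated ES array lay beside an adult one, the second endoderm array with pancreas replicate 1 and embryoid bodies with brain replicate 2. Within each slide, 17 of 18 named islands kept the direction of the whole comparison. The 18 were named for being called in that comparison, which includes these arrays, so this agreement is not independent of it. Efna1 was higher by 0.858 and 0.565, Efna3 by 2.06 and 1.33, the downstream Efna2 island by 1.39 and 0.321, Sema3d by 0.644 and 0.155 and Slit1 by 0.514 and 0.451. With the slide as a block across all arrays, 10 of the 11 lower calls were lost, and the innermost Ephb2 island alone kept its call (adjusted p = 0.0491). The adjusted p was 0.432 for Sema6b, 0.0925 for Epha8, 0.266 for Epha10, 0.226 for Nrp1, 0.270 for Unc5d, 0.0727 for Unc5a, 0.0911 for Ntn1, 0.0881 for Slit3, 0.124 for Ephb4 and 0.560 for Epha2, where the difference was -0.205. With the scan day as a block the lower calls of Ephb2 and Ntn1 were kept (adjusted p = 0.0183 and 0.0283) and the other 9 lost. The exceptions within slides were Sema6b, higher by 0.176 in endoderm than in pancreas, and Epha2, higher by 0.0926 in embryoid bodies than in brain. Of the well known members that were followed whatever their values, Slit2 (0.0750, adjusted p = 0.571), Robo1 (-0.157, 0.286), Nrp2 (-0.109, 0.410), Epha4 (-0.0869, 0.684), Efnb2 (-0.107, 0.349), the Ephb2 start (-0.0216, 0.890) and the largest Nrp1 island (0.282, 0.125) did not pass. Epha4 passed, as lower, with the slide or the scan day as a block (adjusted p = 0.0404 and 0.0366).

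Embryos were compared with the same adult arrays to see which members differ before birth. Here 3 members were higher and 4 lower, 8.33% of the members beside 8.64% of all islands (5.17% higher and 3.47% lower), with a median difference of -0.0160 beside 0.0368. The inner island of Sema6c, a transmembrane semaphorin that signals through class A plexins (chr3:95257753-95259215, 12 probes), differed most. It scored 1.40 to 3.55 in adult tissue with a median of 2.59, and 0.559 at 8.5 dpc, 0.530 at 9.5, 0.719 at 10.5, 1.33 at 11.5 and 1.40 at 12.5 dpc. All but the last embryo lay below the lowest adult value. The difference was -1.57 (SE 0.295, adjusted p = 0.000845). An Ephb2 island of 3 probes 80007 to 80338 bases past the start (chr4:136027651-136028026) scored 0.0999 at 8.5 dpc, -0.0306 at 9.5, -0.156 at 10.5, -0.0122 at 11.5 and -0.345 at 12.5 dpc, below all adult arrays, which spread widely from 0.220 to 2.84 (difference -1.41 (SE 0.379, adjusted p = 0.0162)). Such a separation downward was found in 1.29% of all islands. The upstream Epha2 island differed by -0.875 (SE 0.188, adjusted p = 0.00290).

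The other embryo differences were smaller. The Ntn1 start differed by -0.367 (adjusted p = 0.0225) and the upstream Sema3b island higher by 0.350 (adjusted p = 0.00943). The inner islands of Ephb3 and Ephb4 were higher by 0.487 and 0.590 (adjusted p = 0.0464 and 0.0430). Without the 8.5 dpc embryo Sema3b did not pass (adjusted p = 0.0570), without any 1 of the other 4 embryos Ntn1 did not (0.0522 to 0.0813), and without any 1 of the 5, or any 1 of 7 and 8 adult arrays, Ephb3 and Ephb4 did not, with an adjusted p of up to 0.144 and 0.120. Sema3b had all embryos above all adult arrays, as had 1.31% of all islands. No embryo shared a slide or scan day with adult tissue. The only tie was through TT2, which lay on a slide with the 8.5 dpc embryo, and with the slide or the scan day as a fixed block 0 members passed. With the slide as a random block 2 members passed.

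**Figure D4:**
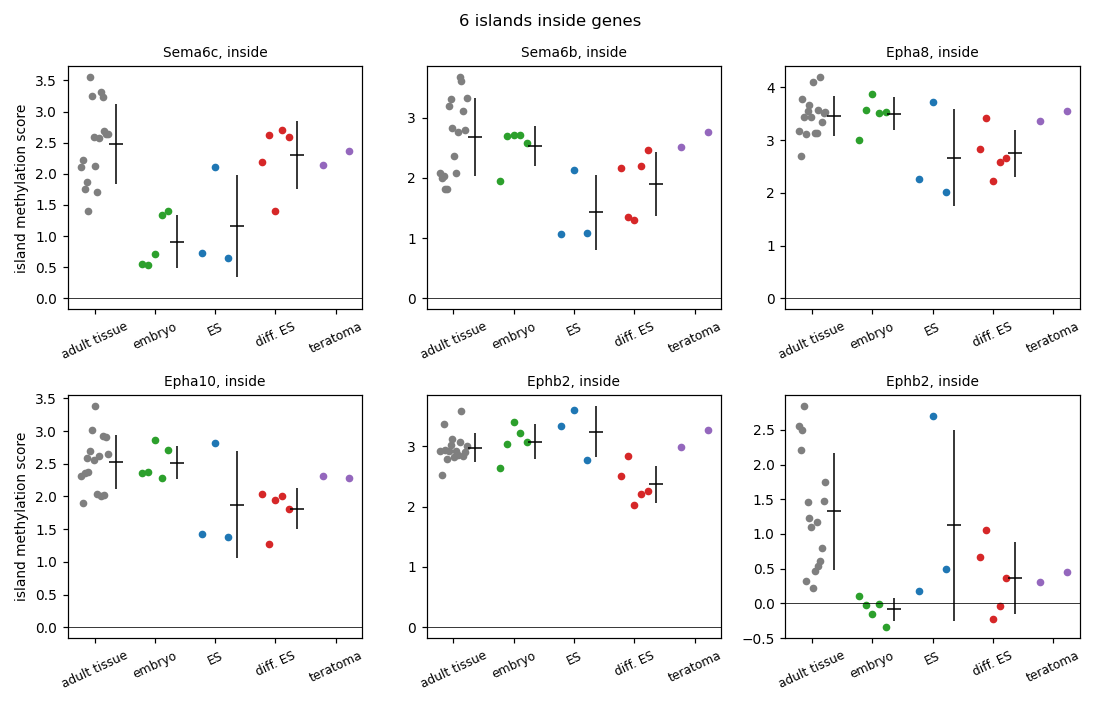
IMS (vertical axis) of 6 islands inside genes, drawn as in the plot of higher islands, the lower middle panel being the innermost Ephb2 island and the lower right panel the one 80007 to 80338 bases past the start. Sema6c is low in embryos, EB5 and TT2 and high in differentiated ES cells and teratomas, and J1 lies far from the other ES lines in all panels but the innermost Ephb2 island.

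Differentiated ES cells were then set against embryos, with the differentiated arrays of the comparison above. Of the members 8 were higher and 9 lower, 20.2% beside 21.1% of all islands (11.8% higher and 9.29% lower), with medians of -0.00945 and -0.0392. All differentiated arrays lay above all embryos at 5 members (8.67% of all islands), Efna1, Efna2, Efna3, Sema3d and Slit1, and below them at 4 (5.66%), Epha10, Sema3b, Sema5b and Unc5d. On Z-scores from autosomal probes the split was 7 higher and 13 lower and on median-centred log2 ratios 5 and 14. The largest difference was again Sema6c, at 2.19 in embryoid bodies, 2.62 in retinoic acid treated cells, 1.40 and 2.71 in endoderm and 2.60 in mesoderm, higher by 1.39 (SE 0.364, adjusted p = 0.00659). Efna2 downstream, Efna3 and Sema3d were higher by 1.13, 1.10 and 0.739 (adjusted p = 7.78e-05, 0.0133 and 0.00171). Embryos scored -0.413 ± 0.290 (SD, n = 5), -0.0814 ± 0.182 (SD, n = 5) and -0.343 ± 0.282 (SD, n = 5) in these 3 islands. The inner Sema3b island differed by -1.03 (SE 0.242, adjusted p = 0.00304), as were Epha8 (-0.751, adjusted p = 0.0437), the innermost Ephb2 island (-0.708, 0.00373) and the inner Epha10 island (-0.704, 0.0495). The Epha8 and Epha10 calls were lost without any 1 of 8 and any 1 of 10 arrays. No slide held both groups. With the slide as a block 2 members passed, of which 1 had been called before, the inner Efna3 island. With the scan day 2 passed, both called before, the downstream Epha10 island and an inner Ephb2 island.

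Undifferentiated ES cells differed from adult tissue at 2 members, both lower, 2.38% beside 2.3% of all islands (0.984% higher and 1.31% lower). All ES arrays lay above all adult ones at 1 member, the inner Unc5a island (0.61% of all islands), and below them at 0 (0.0881%). The 2 called islands were the inner Sema6c island, at 0.730 in EB5, 2.10 in J1 and 0.642 in TT2 (difference -1.32, adjusted p = 0.0475), and the upstream Epha2 island, at -1.28 in EB5, 0.158 in J1 and -0.817 in TT2 (-0.856, 0.0429). In both, J1 lay within the adult range while EB5 and TT2 lay below it. EB5 lay on 1 slide with an adult array, pancreas replicate 2, from which it differed by -1.14 in Sema6c and by -1.38 in Epha2. With the slide as a block the Sema6c call was lost (adjusted p = 0.552) and that of Epha2 kept (0.0490), and with the scan day both were lost (1.00 and 0.978). In the deposited table, where J1 has other values, 16 of the 44 members scored passed beside 26.4% of all islands there, Sema6c among them. Without J1, 15 of the 84 members passed, 17.9% beside 8.45% of all islands, 6 of them higher (4.58% of all) and 9 lower (3.87% of all), whereas without EB5 or without TT2 0 passed. Each of the 2 calls was also lost without any 1 of 9 adult arrays, with adjusted p up to 0.0609 for Sema6c and 0.0576 for Epha2. Of the 9 lower ones 7 were high islands inside genes. EB5 and TT2 scored 2.26 and 2.02 in Epha8, against 3.72 in J1 and an adult mean of 3.46 (difference without J1 -1.32, adjusted p = 0.00120). In Sema6b they scored 1.06 and 1.08, against 2.14 in J1 and 2.67 in adult tissue. The inner islands of Epha10, Efna2, Slit3 and Sema3b were likewise lower without J1, with differences of -1.12, -1.04, -1.03 and -0.997. Among the 6 higher ones were the starts of Epha5 (0.469), Sema6d (0.382) and Sema5a (0.562).

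Between differentiated and undifferentiated ES cells 1 member was higher and 2 were lower, 3.57% beside 5.43% of all islands (3.51% higher and 1.92% lower). Efna1 was higher by 0.645 (SE 0.150, adjusted p = 0.0103) over undifferentiated values of -0.789 in EB5, -0.563 in J1 and -0.266 in TT2, and no differentiated array overlapped the undifferentiated ones. Such a separation was seen upward in 3 members (3.96% of all islands) and downward in 2 (5.15%). The innermost Ephb2 island differed by -0.871 (SE 0.198, adjusted p = 0.00897) from 3.33 in EB5, 3.61 in J1 and 2.78 in TT2, and the inner Unc5a island by -0.762 (SE 0.187, adjusted p = 0.0149) from 2.85 in EB5, 2.80 in J1 and 2.92 in TT2. In Unc5a the retinoic acid array, at 2.92, did not share the reduction. Without J1 the Ephb2 call was lost (adjusted p = 0.0774), and without EB5 the Efna1 call (0.0824). With the slide as a block all 3 calls were lost (adjusted p = 0.256 for Efna1, 0.172 for Ephb2 and 0.246 for Unc5a), and with the scan day those of Efna1 and Unc5a (0.127 and 0.107). The deposited table gave 11 calls, 0 of these 3 among them. The 11 were 25% of the members scored there, beside 22.7% of all islands. Without J1, 4 members passed, 3 higher and 1 lower, beside 3.58% of all islands (2.66% higher and 0.925% lower). There the inner islands of Sema6c and Efna2 were higher by 1.62 and 1.02 (adjusted p = 0.0409 and 0.0181). The comparisons above share the differentiated, undifferentiated or adult arrays with each other, so that their calls are not independent.

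Because these genes are best known for wiring the nervous system, brain was compared with the other 7 adult tissues. Limma called 0 members and 0 of the 13616 islands, the lowest adjusted p of a member being 1.00. At an unadjusted p under 0.05 it gave 0 members and 544 islands, and the methods' t-test gave 1 member, with 0 after adjustment. The largest member differences were the Ephb2 island 80007 to 80338 bases past the start, at 0.319 and 1.47 in brain against a mean of 1.39 in the others (difference -0.494 ± 0.248, SE), and an inner Sema5b island at 0.986 and 2.31 (0.482 ± 0.397).

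The study called islands constitutively unmethylated when their IMS was below 0 in all tissues and methylated above 0.75. Of the 21 members below 0 on every adult array, 0 exceeded 0.75 on any differentiated ES array, embryo or undifferentiated line, beside 2.96% of the 4053 such islands for the differentiated arrays. The highest values on the differentiated arrays were 0.376 (Efna1) and 0.236 (Sema5a), both in the second endoderm array. The rise of Sema3d to 0.788 in mesoderm was not counted, because brain replicate 2 scored 0.0966. Without that array, or with a mean below 0 required in each tissue instead, Sema3d alone was counted.

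The pancreatic cell lines and sorted β cells rest on 1 array each, so that their values are given with no test. Of the 21 unmethylated members, all of them also below 0 in sorted β cells, 2 exceeded 0.75 in Min6 and 3 others in αTC, 23.8% beside 7.41% of the 3820 such islands. The start of Slit3, whose window is the richest in CpGs of those printed, scored -0.593 in β cells, 2.06 in Min6 and 0.570 in αTC, with an adult maximum of -0.259. Ephb1, at its start, scored -0.686 in β cells, 0.794 in Min6 and 0.195 in αTC. Upstream islands of Slit2, Nrp1 and Epha6 rose above 0.75 in αTC alone, to 1.26, 1.27 and 0.770. Other start islands that were near 0 in adult tissue stood out too. Unc5d scored -0.268 in β cells, 1.89 in Min6 and 1.82 in αTC and Ephb3 0.0955 in β cells, 1.78 in Min6 and 1.50 in αTC. Plxnd1, a vascular semaphorin receptor, in an island just past the start, scored -0.265 in β cells, 1.58 in Min6 and 1.11 in αTC, and the Ntn1 start -0.310 in β cells, 0.730 in Min6 and 0.916 in αTC. Both lines lay above all 16 adult arrays at 20 members, which was so for 12.3% of all islands of any position. Of the 20 members 13 were start islands, and no share over all start islands stands beside that count.

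Both lines lay below every adult array at 9 members, 10.7% of the members beside 20% of all islands. Of these 8 were inside genes, 25% of the 32 members there beside 20.7% of all 2446 islands inside genes. They lay in Epha8, Ntn1, Unc5a, Ephb3, Slit3, Ephb4 (7570 to 7784 bases past the start) and Ephb2 (64346 to 65069 and 141826 to 142162). The other member was the Sema4b start. Sorted β cells also lay below every adult array at Epha8 (2.44), Ntn1 (2.11), Ephb2 (2.33 and 2.23) and Sema4b (-1.10), but not at the rest. Among the 9, the inner Ephb3 island scored 2.46 in β cells, 0.602 in Min6 and 1.53 in αTC. The inner Slit3 island scored 1.42 in β cells, 0.429 in Min6 and 0.649 in αTC. In 1 inner island each of Ephb4 and Epha2, Min6 lay below every adult array but αTC did not. The Ephb4 island 4168 to 4424 bases past the start scored 2.74 in β cells, -0.381 in Min6 and 1.09 in αTC (adult minimum 0.900). Epha2 gave 2.40 in β cells, 1.13 in Min6 and 1.66 in αTC (adult minimum 1.49). In Ephb3, Slit3 and Sema5b the order of start and inner islands turned round in Min6. The Sema5b start scored 1.19 and its inner islands 0.888 and -0.0209, and the Slit3 start stood at 2.06 above its inner island at 0.429. The median difference from β cells over the 38 start islands was 0.169 in Min6 and 0.646 in αTC, and over the 32 islands inside genes -0.308 and -0.344. No such medians over all start or inside islands stand beside these, so they describe the members only. The 2 teratomas lay within the adult range at Efna1, Sema3d, Slit1 and Sema6c. They scored -0.426 and -0.470 in Efna1, -0.554 and -0.665 in Sema3d, 0.0555 and -0.111 in Slit1 and 2.14 and 2.37 in Sema6c. At the Ntn1 start both teratomas lay below every adult array, at -0.711 and -0.779 (adult minimum -0.568). At the upstream Sema3b island the second lay above every adult array, at -0.237 (adult maximum -0.280). The other members were not counted in this way.

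**Figure D5:**
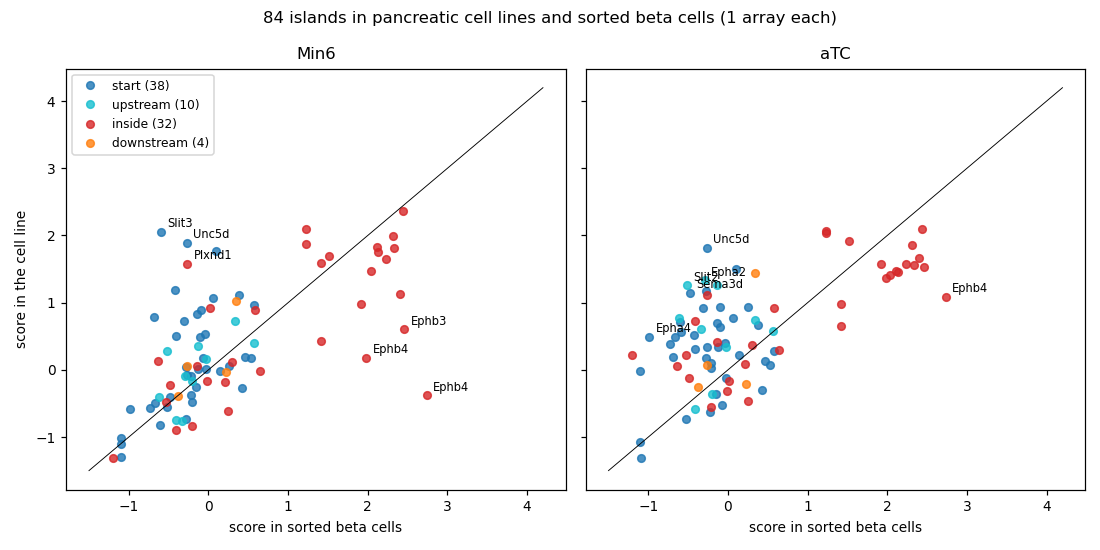
IMS of the 84 islands in Min6 (left) and αTC (right) on the vertical axes against sorted β cells on the horizontal axes, coloured by position, with 1 array each and a line of equality. Start islands such as Slit3 and Unc5d lie far above the line, and islands inside Ephb3 and Ephb4 far below it in Min6.

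Other genes of the pathway were taken from a list by name. Of 49 islands of 37 cytoplasmic effectors, 3 were higher and 5 lower in differentiated ES cells than in adult tissue, and of 41 islands of 22 further ligands, receptors and adhesion molecules 3 were higher and 5 lower, with medians of -0.0828 and 0.000895. These counts stood beside 14.4% of all islands called higher and 8.73% called lower. Slitrk1 and Ptprs exceeded every member in size. Slitrk1, a neuronal adhesion protein with Slit-like repeats, was higher by 2.36 (SE 0.252, adjusted p = 6.14e-08) in an island 1763 to 1987 bases past its start. Ptprs, a receptor tyrosine phosphatase of growth cones, was higher by 1.52 (SE 0.144, adjusted p = 7.15e-09) 1750 to 2502 bases past its start but differed by -0.486 (SE 0.162, adjusted p = 0.0283) in an island 58798 to 59244 bases past it. Dpysl4, a relative of the collapsin response mediators that act downstream of semaphorins, was higher by 1.05 (SE 0.166, adjusted p = 2.44e-05) at its start. Among the 10 lower islands, the largest differences were in inner islands of Rgma, a repulsive guidance molecule (difference -0.957 (SE 0.266, adjusted p = 0.00878)), and Nfatc1, a calcineurin-regulated transcription factor (difference -0.759 (SE 0.218, adjusted p = 0.0111)), whose start island was higher by 0.329. In embryos against adult tissue the effectors had 2 islands higher and 3 lower and the other list 1 and 0, beside 5.17% and 3.47% of all islands, the largest difference being Nfatc4 (difference -1.93 (SE 0.249, adjusted p = 1.45e-05)).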

How the data were processed

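Arrays were scanned and extracted by the authors with Agilent Feature Extraction (4 software versions), which subtracted background and normalised the dyes linearly. The deposited scanner files hold the log10 ratio of Cy5 (bound) over Cy3 (input), with spot intensity per channel, also as deposited. The deposited value table holds a probe score, the authors' Z-scores after a correction for melting temperature, and was used as an alternative. The genome build of the array positions is not given in the sources used here.

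Control spots and flagged spots were left out, log ratios were standardised within each array over all probes, and probes were averaged per island. Differences were fitted with limma 3.58.1 (R 4.3.3) over all 13616 scored islands and all groups, with Benjamini-Hochberg adjustment at 0.05. Only the members were limited to autosomes, and the shares over all islands carry no such limit. The labels do not pair samples, and comparisons share arrays. The script was tested on simulated data. Arrays give no counts, so that precision rests on the number of arrays. No 2 arrays were duplicates, the highest correlation of any pair being 0.967.

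Named islands were 1 per gene, the 20 (first comparison) or 8 (others) with the largest called differences, and fixed members (Ntn1, Slit2, Robo1, Nrp1, Nrp2, Epha4, Ephb2, Efnb2) whatever their values. Other islands named were chosen after their values were seen. The members and lists were chosen with earlier results of these data known. The t-test named in the methods, normexp, other probe filters and groupings, slide and scan day as blocks and leaving out each array were alternatives. Normexp on median signals, the fits without J1 and adult arrays left out of the 0.75 rule were added after the data were seen.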

Additional observations from a re-analysis of the deposited data

Results flagged for a closer look

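Among 60 groups of 4 to 10 arrays tested for 1 array standing apart, 3 did, and chance gives about 1 in 20. The inner Sema6b island scored 1.94 in the 8.5 dpc embryo, with the other embryos between 2.58 and 2.71. The Unc5d start scored 0.0524 in the 11.5 dpc embryo, with the others between -0.145 and -0.107. The Slit3 start scored -0.578 in the first endoderm array, with the other differentiated ES arrays between -1.19 and -1.02.

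In the pancreatic lines, which enter no comparison with a test, 5 members that were below 0 on every adult array and in sorted β cells were above 0.75, in Min6 the starts of Slit3 and Ephb1 and in αTC the upstream islands of Slit2, Nrp1 and Epha6. Each line is 1 array, and both lay on 1 slide.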

How the results depend on the processing

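Counts of called members are given in the order differentiated ES against adult tissue, against embryo, embryo against adult tissue, undifferentiated ES against adult tissue and differentiated against undifferentiated ES, where the reported counts were 19, 17, 7, 2 and 3. Normexp gave 10, 2, 2, 0 and 0, beside 13.4%, 5.69%, 1.23%, 0.0294% and 0.242% of all islands. The deposited table (44 members) gave 7, 8, 3, 16 and 11, beside 22.3%, 19.7%, 7.95%, 26.4% and 22.7%. At least 5 probes (56 members) gave 11, 9, 2, 1 and 1, beside 21.0%, 19.3%, 9.49%, 2.05% and 4.84%. Requiring input well above background (54 members) gave 11, 8, 1 and, in the last, 1, beside 22.8%, 23.7%, 8.57% and 6.37%. The slide as a fixed block gave 11, 2 and 0 in the first 3, the scan day 2, 0 and 0 in the middle 3, and the slide as a random block 2 and 1 in embryo and undifferentiated ES against adult tissue. Median centring, a fit of only the 2 groups and the methods' t-test each gave 0 in the last 2, and the t-test 11 in the second. Leaving out 1 array gave 12 to 20, 12 to 18, 4 to 10, 0 to 15 and 2 to 6. The count above 0.75 was 1 with tissue means or the deposited table, and 0 to 1 without 1 array. The tables and filters with fewer members test fewer islands, and other causes were not tested.

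Directions turned for Nrp1 past the start (0.0409 by probe median), Sema3b upstream in embryo (-0.0948, slide block), Sema3b inside against embryo (0.190, slide block) and Unc5a between ES states (0.0544, deposited table). They also turned for members that did not pass. These were Slit2 (-0.00255 normexp, -0.0657 input filter, -0.0280 slide, -0.0209 day), Robo1 (0.0910 normexp, 0.247 probe median), Nrp1 upstream (-0.00739 normexp, -0.0679 slide, -0.0281 day), Epha4 (0.0585 normexp) and the Ephb2 start (0.153 deposited table, 0.0563 input filter, 0.138 probe median, 0.0670 slide, 0.0167 day, 0.0114 random slide). In all, 1122 of 1421 values kept direction and side of the threshold. Brain stayed at 0 calls, also with the replicate block, whose same-numbered arrays correlated from -0.253 to 0.629 over 28 pairs and so do not pair. Normexp on mean signals was not run, since median signals were used instead.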
